A study of Mus musculus with 8 samples.

Results

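The miR-183, miR-96 and miR-182 cluster is a group of miRNAs cut from neighbouring hairpins. Its members were taken by name, as the 5p or 3p arms of the 3 precursors, and 3 of the 730 entries of the miRNA class, or of the 20558 small RNAs listed, were found: mmu-miR-183-5p, mmu-miR-96-5p and mmu-miR-182-5p, written below without the prefix for mouse. They were selected on their counts in the SD and WD mice and on how they moved together within a mouse, so their levels, ratios and differences between diets are given as a description, with no test. All 3 passed the filter on low counts, as did 418 of the 730 miRNA entries.

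The cells of the retina, the inner ear and other sense organs are where these miRNAs are best known, and loss or mutation of the cluster disturbs sensory cells. They lie close together on one strand and are regarded as parts of one primary transcript, which Drosha and Dicer cut into hairpins and then into mature strands. A miRNA finds its target messages mainly through its seed, the bases behind its 5' end, and the 3 members have similar seeds.

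Small RNA from the testes of 8 adult male C57Bl/6 mice had been sequenced. The 4 SD mice, the controls, received a standard diet and are named M1N, M2N, TN1 and TN2. The 4 WD mice received a Western-like diet rich in fat and sugar from 4 weeks of age, by the sample labels, and are named M1W, M2W, M3W and M5W. The labels put males at 4 months of age when they were mated, and give the fat-rich diet for controls too, a sentence not used here for the SD mice. What the letters M and TN stand for is not given in the sources used here, and every TN mouse is an SD mouse, so a difference tied to these letters and one tied to diet cannot be told apart among those mice. Each mouse is one library.

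Depth is given as the count over all small RNAs. It was 3248708 in M1N, 3253798 in M2N, 3101032 in TN1 and 2064562 in TN2, and 2931793 in M1W, 2290920 in M2W, 2159625 in M3W and 3092399 in M5W. TN2 was the shallowest library and M3W the next. Levels below are CPM, counts scaled to library size and to TMM factors that even out composition between libraries. A fixed floor of 3 counts, taken here as the most that a count of 0 allows, equalled 0.933 to 1.39 CPM. Intervals are exact 95% intervals and reflect counting error alone. They treat each count as a separate molecule, although some may be copies made by PCR, so they may be too narrow. After a ± sign, SD stands for the standard deviation over mice.

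Some libraries stood apart before the cluster was considered. On the first principal component of log2 CPM over 16955 small RNAs, with 48.2% of the variance, M1N lay at -69.6 and M2N at -34.1, while the other 6 mice lay between 4.13 and 33.2. The tissue label was met by its markers. All 5 testis and germ cell miRNAs of a fixed list were present, led by miR-34c-5p, with summed levels between 16206 CPM in M1W and 21268 CPM in M3W, and piRNAs, the small RNAs of germ cells, took 84.4% to 88.6% of all counts.

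The mature sequences are shown because shared bases bear on how reads of the members can be told apart. They come from RefSeq (GRCm38.p6), in which all 3 names were matched, and the seed, bases 2 to 8, is in capitals.
miR-183-5p: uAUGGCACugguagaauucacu
miR-96-5p: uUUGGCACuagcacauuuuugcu
miR-182-5p: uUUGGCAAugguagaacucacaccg
No pair of members had the same bases 2 to 8. miR-96-5p and miR-182-5p shared bases 2 to 7, and among the 1679 mature names there, 1 other miRNA, miR-1271-5p, had the full seed of miR-96-5p, although it is not listed among the counts.
miR-1271-5p: cUUGGCACcugguaagcacuca
Aligned from the first base without gaps, miR-183-5p and miR-182-5p were identical at 81.8% of 22 bases and differed at 4, written as the base of miR-183-5p, the position from its 5' end, and the base of miR-182-5p: A2U, C8A, U17C and U22A. Their first 16 bases differed at only 2, the number of mismatches that the alignment allowed, and how a read with several matches was counted is not stated, so short reads of this pair may have been shared between them. miR-96-5p was farther away, with 9 differences over 22 bases from miR-183-5p and 11 over 23 bases from miR-182-5p.

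In the NCBIM37 assembly, the build named mm9 in the submitters' notes, each mature sequence matched the genome at exactly 1 place, on the minus strand of chromosome 6. miR-183-5p lies at chr6:30119711-30119732, miR-96-5p at chr6:30119506-30119528 and miR-182-5p at chr6:30115962-30115986. The GENCODE annotation places them in the miRNA genes Mir183 (30119668 to 30119737), Mir96 (30119446 to 30119551) and Mir182 (30115918 to 30115992). On the minus strand transcription meets Mir183 first, then Mir96 after a gap of 116 bases and Mir182 after a further 3453 bases, 3820 bases in all. No other annotated gene overlaps that stretch. It lies between the protein-coding genes Nrf1, which ends 12459 bases before it on the plus strand, and Ube2h, which lies 41551 bases beyond it on the minus strand. RefSeq names a long non-coding RNA gene, Mirc35hg, over the same hairpins.

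**Figure D1:**
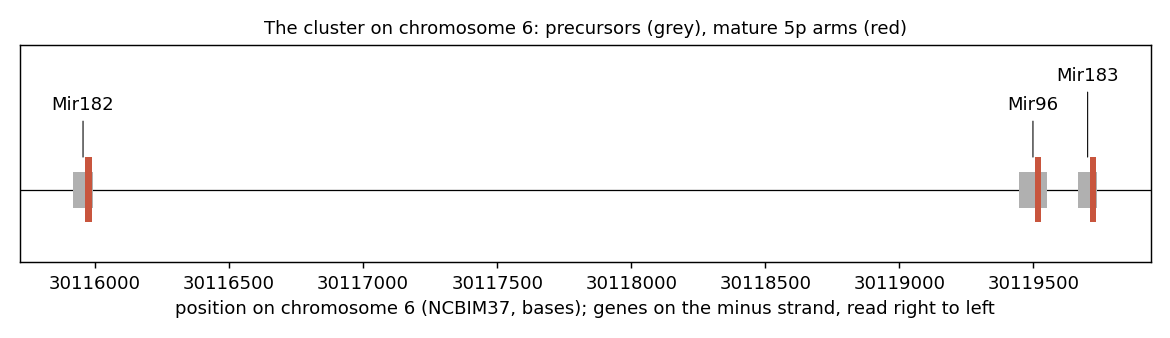
Map of the cluster on chromosome 6 of NCBIM37, with position in bases on the horizontal axis, precursors in grey and mature 5p arms in red. Mir183 and Mir96 are 116 bases apart and Mir182 lies 3453 bases further along the minus strand.

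The hairpins, also from RefSeq, show both arms in capitals, the 5p arm first. They are given because the 3p arms are not listed in the table of counts, nor are entries for the precursors themselves, so each hairpin was measured through its 5p arm alone. Listed small RNAs had at least 9 counts over the 8 mice.
Mir183: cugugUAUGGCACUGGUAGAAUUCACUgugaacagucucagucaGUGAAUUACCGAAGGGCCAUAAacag
Mir96: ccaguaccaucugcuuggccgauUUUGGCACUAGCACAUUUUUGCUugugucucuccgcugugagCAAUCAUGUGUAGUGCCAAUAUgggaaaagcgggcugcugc
Mir182: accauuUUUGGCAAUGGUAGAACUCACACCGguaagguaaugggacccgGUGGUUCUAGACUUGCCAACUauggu

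All members were of low abundance. Among the 576 mature miRNAs listed, miR-182-5p ranked 205 by mean level, miR-96-5p ranked 236 and miR-183-5p ranked 249. Their counts per mouse lay between 35 and 91 for miR-182-5p, between 24 and 55 for miR-96-5p and between 10 and 59 for miR-183-5p. At such counts the counting error of a single mouse is large beside many of the differences between mice.

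miR-183-5p, the member nearest the start of the transcript, stood at 13.0 CPM in M1N, 7.65 in M2N, 18.6 in TN1 and 19.9 in TN2 among SD mice. In WD mice it stood at 7.23 CPM in M1W, 7.02 in M2W, 4.61 in M3W and 6.22 in M5W. The TN mice were the highest and every WD mouse was below every SD mouse, but M2N exceeded M1W by little, and their intervals, 4.90 to 11.4 CPM and 4.53 to 10.9 CPM, overlapped almost wholly. Mean levels were 14.8 ± 5.62 CPM (SD, n = 4) on the standard diet and 6.27 ± 1.19 CPM (SD, n = 4) on the Western-like diet. The log2 fold change, WD against SD, was -1.21 with a standard error of 0.31. As a description of the spread, the chi-square of its counts against counting error was 6.24 per degree of freedom among SD mice and 0.526 among WD mice.

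miR-182-5p, the most abundant member, stood at 20.9 CPM in M1N, 22.0 in M2N, 28.7 in TN1 and 29.2 in TN2. On the Western-like diet it stood at 11.5 CPM in M1W, 17.1 in M2W, 16.6 in M3W and 12.1 in M5W. Again all WD mice lay below all SD mice, with the TN mice highest. Mean levels were 25.2 ± 4.34 CPM (SD, n = 4) for SD mice and 14.3 ± 2.92 CPM (SD, n = 4) for WD mice, and the log2 fold change was -0.82 with a standard error of 0.22. The closest mice across the diets were M1N and M2W, whose intervals of 16.0 to 26.9 CPM and 12.2 to 23.4 CPM overlapped. The spread within a diet was moderate, with a chi-square per degree of freedom of 2.10 among SD mice, the lowest of the 3 members there, and 1.59 among WD mice.

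miR-96-5p, whose seed mutations are known to cause progressive hearing loss, gave another picture. It stood at 11.7 CPM in M1N, 9.25 in M2N, 17.3 in TN1 and 19.0 in TN2, and in WD mice at 8.88 CPM in M1W, 11.0 in M2W, 18.4 in M3W and 7.47 in M5W. The diets overlapped: M3W, a WD mouse, was above TN1 and second only to TN2, and M2N lay below M2W. The means of 14.3 ± 4.61 CPM (SD, n = 4) on the standard diet and 11.4 ± 4.88 CPM (SD, n = 4) on the Western-like diet differed by less than the spread within either diet, and the log2 fold change was -0.34 with a standard error of 0.31. It was -0.65 without M3W, -0.17 without M5W, -0.19 without TN2 and -0.22 without TN1, so single mice moved it by more than 1.5 times.

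**Figure D2:**
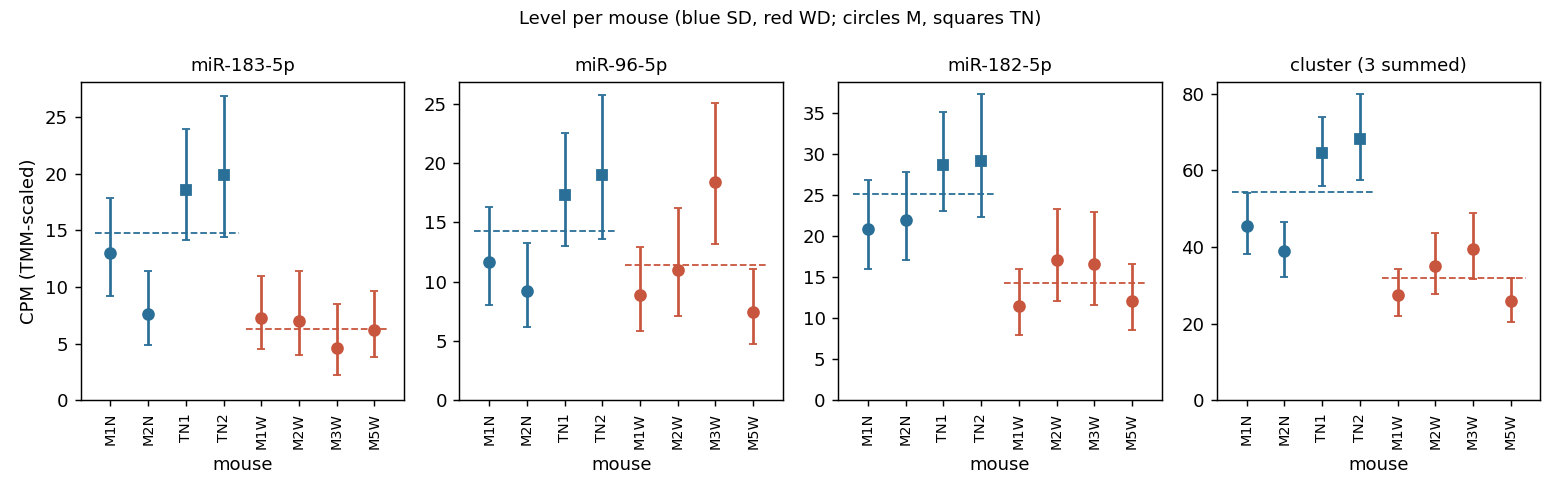
Level of each member and of their sum in each mouse, in CPM, with exact 95% counting intervals as bars and the mean of each diet as a dashed line. All 4 WD mice lie below all 4 SD mice for miR-183-5p and miR-182-5p but not for miR-96-5p, where M3W reaches 18.4 CPM, nor for the sum.

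So 2 of the 3 members had WD mice entirely below SD mice. The same held for 12 of the 418 miRNA entries tested (2.87%), these 2 included, and the opposite, WD mice entirely above SD mice, for 23 (5.5%). Since the members were selected on this contrast, nothing is read from their count. Across all miRNA entries, the quasi-likelihood test of edgeR, adjusted after Benjamini and Hochberg over all small RNAs, found 0 of 418 with an adjusted p under 0.05 (0%), and DESeq2 and limma-voom also found 0. This count differed with the mice used, and the filter, rerun for each set of mice, also changed which entries were tested. By edgeR, 84 entries were called with M1N and M2N as the only SD mice and 18 with TN1 and TN2. In the M1 and M2 mice, where M3W and M5W were left out too, it called 22, or 25 with the mouse number as a block. An unadjusted p of 0.05 or less was reached by 69 entries (16.5%) in edgeR, 65 in DESeq2 and 64 in limma-voom. The median log2 fold change of the 418 was 0.03.

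Summed over the 3 members, the cluster stood at 45.6 CPM in M1N, 38.9 in M2N, 64.6 in TN1 and 68.1 in TN2, against 27.6 in M1W, 35.1 in M2W, 39.6 in M3W and 25.8 in M5W. M3W exceeded M2N, so the diets overlapped by this pair of mice. The means were 54.3 ± 14.2 CPM (SD, n = 4) for SD mice and 32.0 ± 6.46 CPM (SD, n = 4) for WD mice, and the log2 ratio of the means was -0.76. This ratio was -0.40 with M1N and M2N as the only SD mice and -1.05 with TN1 and TN2. In whole testis, fewer cells of a type that makes the cluster and less of it per cell cannot be told apart.

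The order of the mice placed TN2 first for every member and TN1 second for all but miR-96-5p. Against M1N and M2N, the mean of TN1 and TN2 was 1.86 times as high for miR-183-5p, 1.74 times for miR-96-5p and 1.35 times for miR-182-5p. With M1N and M2N as the only SD mice, the log2 fold change, WD against SD, was -0.70 (standard error 0.33) for miR-183-5p, -0.60 (0.25) for miR-182-5p and 0.094 (0.34) for miR-96-5p, whose sign turned. With TN1 and TN2 alone it was -1.59 (0.26) for miR-183-5p, -1.03 (0.23) for miR-182-5p and -0.70 (0.30) for miR-96-5p. Both comparisons use the same WD mice. The size of the difference thus moved with the control mice used, for miR-183-5p and miR-96-5p more than for miR-182-5p. No test was made of TN1 and TN2 against M1N and M2N.

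A liver marker set TN1 and TN2 apart from the other mice. The liver list held 1 miRNA, miR-122-5p, by far the most abundant miRNA of hepatocytes, which had 49 counts in TN1 (15.4 CPM) and 28 in TN2 (13.0 CPM) and 0 in all 6 M mice, where 0 allows up to 0.933 to 1.38 CPM. The level of the lower TN mouse was thus 9.38 times the highest of those limits, with its own counting error left out. The red blood cell list, of which 3 of 4 members were listed and miR-451, an older name of miR-451a, was the most abundant, summed to 151 CPM in TN1 and 116 CPM in TN2, to 71.6 and 40.2 CPM in M1N and M2N, and to 76.9, 138, 113 and 76.5 CPM in M1W, M2W, M3W and M5W. Hence TN1 was highest on that list, while M2W exceeded TN2. The part of these RNAs, and of the libraries' naming, in the level of the cluster was not tested.

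Composition within a mouse does not depend on library size or on scaling. It is a share of counts and not of molecules, because capture during library making differs between sequences. Pooled over SD mice, miR-183-5p took 27.0%, miR-96-5p 26.2% and miR-182-5p 46.8% of 607 counts, and over WD mice 20.4%, 34.8% and 44.7% of 333 counts. The share of miR-182-5p differed between diets by less than the spread between mice, at 47.4% ± 6.22 (SD, n = 4) and 44.8% ± 3.60 (SD, n = 4) as the mean over mice. That of miR-96-5p was 26.0% ± 1.77 (SD, n = 4) for SD mice and 34.7% ± 7.99 (SD, n = 4) for WD mice.

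In M3W alone, miR-96-5p was the most counted member. It took 46.5% (exact 95% interval 35.7 to 57.6) of the 86 counts there, and miR-183-5p took 11.6% (5.72 to 20.3). In the other WD mice miR-96-5p took 32.1% (22.4 to 43.2) in M1W, 31.2% (21.3 to 42.6) in M2W and 28.9% (19.5 to 39.9) in M5W. Among SD mice its share was 25.6% (18.4 to 33.8) in M1N, 23.8% (16.5 to 32.3) in M2N, 26.8% (20.9 to 33.4) in TN1 and 27.9% (20.8 to 35.9) in TN2. Every WD mouse had a larger share of miR-96-5p than every SD mouse, although apart from M3W the intervals overlapped broadly.

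**Figure D3:**
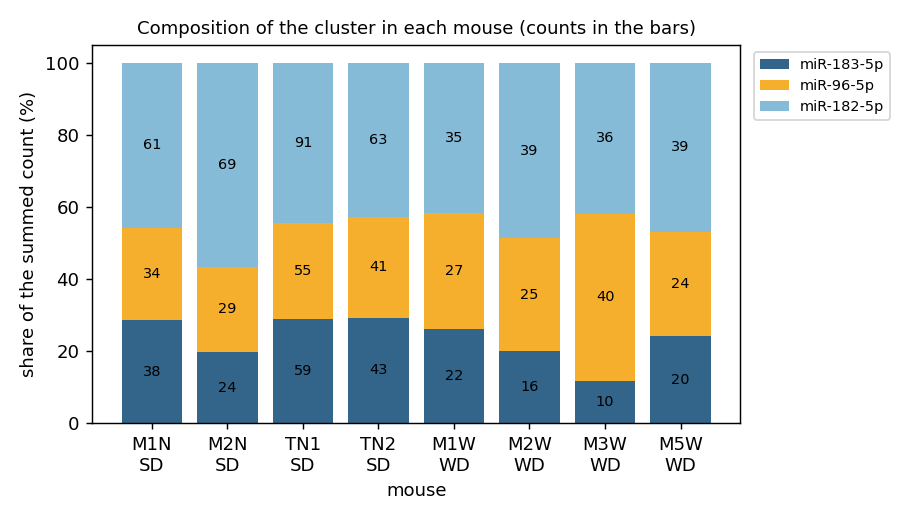
Share of each member in the summed count of the cluster in each mouse, in percent, with the counts printed in the bars. miR-182-5p is the largest part in 7 mice, and in M3W miR-96-5p has 40 counts, miR-182-5p 36 and miR-183-5p 10.

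The ratio of miR-96-5p to miR-183-5p depends on both members. It was 0.895 in M1N, 1.21 in M2N, 0.932 in TN1 and 0.953 in TN2, and 1.23 in M1W, 1.56 in M2W, 4.0 in M3W and 1.2 in M5W. M3W stood far above the rest, and the diets overlapped at M2N and M5W. On the log2 scale the ratio averaged -0.01 ± 0.20 (SD, n = 4) for SD mice and 0.80 ± 0.82 (SD, n = 4) for WD mice, a difference of 0.81 that was 0.42 without M3W. Taken against miR-182-5p, the log2 ratio of miR-183-5p differed between the diets, WD minus SD, by -0.35, which is less than its SD within SD mice, 0.46, or within WD mice, 0.50. This difference was -0.13 without M3W, -0.57 without M2N and -0.52 without M1W, and it was -0.088 with M1N and M2N as the only SD mice and -0.60 with TN1 and TN2. For miR-96-5p against miR-182-5p the difference was 0.47, or 0.29 without M3W and 0.28 with TN1 and TN2 as the only SD mice.

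As a description of how far the composition varied, its chi-square against counting error was 1.94 per degree of freedom over all 8 mice, 1.13 within SD mice and 1.76 within WD mice. Leaving out M3W lowered the first to 0.868 and the last to 0.333. Leaving out any other mouse gave 1.70 to 2.25 over the remaining 7 mice, and within SD mice the value fell from 1.13 to 0.074 without M2N, so it too rested on 1 library. The members had been selected on how they moved together within a mouse and M3W was seen to differ first, so no steadiness of the proportions is read from these values.

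Correlations of log2 CPM (2 counts added as a prior) across mice are given as a description of these libraries, which share the TN and M naming. Over 8 mice miR-183-5p and miR-182-5p gave r = 0.80 and rho = 0.81, miR-96-5p and miR-182-5p r = 0.70 and rho = 0.67, and miR-183-5p and miR-96-5p r = 0.48 and rho = 0.43. Without M3W these values of r were 0.86, 0.87 and 0.95. For miR-183-5p and miR-96-5p, r was 0.27 without TN2, so it depended on the TN mice as well as on M3W. With the 6 M mice alone, r was 0.44 for miR-183-5p and miR-182-5p, 0.37 for miR-96-5p and miR-182-5p and -0.27 for miR-183-5p and miR-96-5p. The mice farthest from the median of miR-183-5p were TN1 and TN2, so leaving those out gives the same values for its pairs, and for miR-96-5p and miR-182-5p, where TN2 and M3W were farthest, r became 0.83. With each diet centred on its own mean, r over the 8 mice was 0.35 for miR-183-5p and miR-182-5p, 0.83 for miR-96-5p and miR-182-5p and 0.34 for miR-183-5p and miR-96-5p, so the first relation was much weaker once the diet difference was taken out. Within the M mice the relation was weaker for each of the 3 pairs than over all 8.

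Other miRNAs thought to share a transcript were set beside the cluster by the same measure, each within the 8 mice. For miR-200b-3p, miR-200a-3p and miR-429-3p, at 153 counts per mouse, the same chi-square of the composition was 1.72 per degree of freedom, close to the 1.94 of the cluster at 118 counts per mouse. For transcripts counted more deeply it was larger: 15.4 for miR-17-5p, miR-18a-5p and miR-20a-5p at 2441 counts per mouse, 50.4 for miR-191-5p and miR-425-5p at 10606, and 112 for miR-34b-5p and miR-34c-5p at 35372. The measure grows with depth. The SD of a log2 ratio between mice does not, though counting error raises it at low counts. This SD was 0.17 for miR-34b-5p to miR-34c-5p and 0.11 for miR-17-5p to miR-20a-5p. It was 0.39 for miR-17-5p to miR-18a-5p, 0.35 for miR-18a-5p to miR-20a-5p and 0.48 for miR-191-5p to miR-425-5p. For miR-200b-3p to miR-200a-3p it was 0.38, for miR-200b-3p to miR-429-3p 0.65 and for miR-200a-3p to miR-429-3p 0.40. Counting error alone would give 0.28, 0.39 and 0.37 for these last ratios. In the cluster the SD was 0.40 for miR-96-5p to miR-182-5p, 0.48 for miR-183-5p to miR-182-5p and 0.70 for miR-183-5p to miR-96-5p, of which counting error alone would give 0.33, 0.37 and 0.40. At this depth, ratios as steady as those of miR-34b-5p to miR-34c-5p could not have been seen in the cluster.

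Of 363 other mature miRNAs that passed the filter, the 5 whose log2 CPM followed the summed cluster most closely over the 8 mice were miR-293-3p (r = 0.97, rho = 0.95), miR-292-5p (r = 0.87, rho = 0.74), miR-290-5p (r = 0.85, rho = 0.74), miR-20b-5p (r = 0.80, rho = 0.50) and miR-376b-3p (r = 0.77, rho = 0.48). The median r of all 363 was -0.12. The first 3 belong to a rodent cluster known from embryonic stem cells and early germ cells. miR-293-3p stood at 41.5 CPM in M1N, 24.9 in M2N, 173 in TN1, 147 in TN2, 10.5 in M1W, 10.1 in M2W, 30.4 in M3W and 8.09 in M5W. Its order was close to that of the summed cluster, with TN1 and TN2 far above the rest, then M1N, and with M3W the highest WD mouse in both.

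Among the 6 M mice r with the summed cluster was 0.91 for miR-293-3p and 0.04 to 0.39 for the other 4, whose likeness thus came with the TN mice. miR-290-5p stood at 212 CPM in TN1 and 228 CPM in TN2 against 2.55 to 19.4 CPM in the M mice. miR-292-5p stood at 114 CPM in TN1 and 109 CPM in TN2 against 2.49 to 7.37 CPM in the M mice. In edgeR's quasi-likelihood test the log2 fold change of miR-293-3p was -2.74 (standard error 0.55, adjusted p = 0.318), with 3 of 4 WD mice below every SD mouse. It was -1.21 with M1N and M2N as the only SD mice and -3.50 with TN1 and TN2. Being picked for likeness to the cluster, these miRNAs are not independent of its contrast. miR-20b-5p is nearly identical to other members of its family, with which it may share reads.

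**Figure D4:**
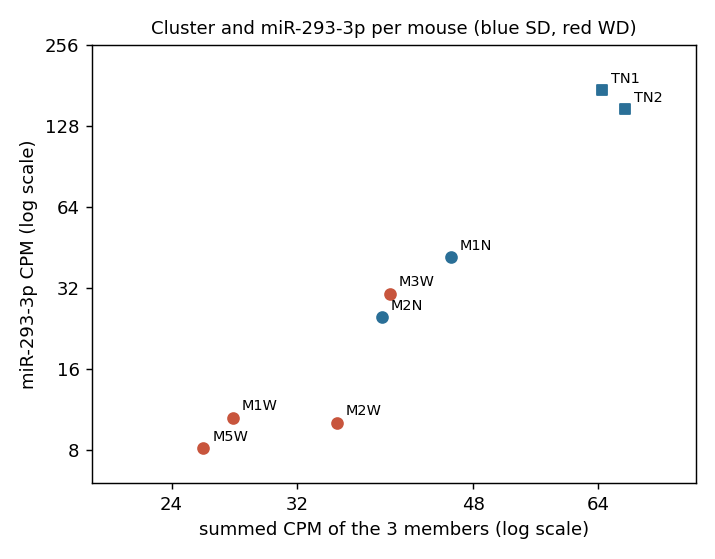
Level of miR-293-3p in CPM against the summed level of the 3 members in CPM, both on log scales, 1 point for each mouse, with squares for TN mice. TN1 and TN2 lie at the top right, at 64.6 and 68.1 CPM of the sum and 173 and 147 CPM of miR-293-3p, and the WD mouse M3W lies beside the SD mouse M2N.

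Lists of related miRNAs were read from the same edgeR fit, in which 16.5% of all miRNA entries had an unadjusted p of 0.05 or less. Lists of 2 to 5 members are too short to be set apart from that share. Of the 13 neighbour, sensory and epithelial miRNAs tested with all SD mice, 0 had an adjusted p under 0.05. The filter was rerun for each set of mice, so miR-335-5p also passed it with either pair, and miR-205-5p did not with TN1 and TN2. On these lists, 4 were called with M1N and M2N as the only SD mice, 0 with TN1 and TN2, and 3 in the M1 and M2 mice. Over all miRNA entries, these settings gave 0, 84, 18 and 22, in that order. The last was 25 with the mouse number as a block. Within 2 Mb of the cluster the annotation has 7 other miRNA genes, and 6 mature miRNAs from them are listed, 5 of which were tested: 0 had an adjusted p under 0.05 and 0 an unadjusted p of 0.05 or less, with a median log2 fold change of 0.01. Mature miR-29b-3p and miR-129-5p also come from hairpins elsewhere in the genome (Mir29b-2 and Mir129-2), so their counts cannot be given to the genes near the cluster alone. The most abundant of these neighbours, miR-29a-3p, 892923 bases away, averaged 2970 ± 625 CPM (SD, n = 4) for SD mice and 2980 ± 625 CPM (SD, n = 4) for WD mice. Its log2 fold change turned sign with the control mice, at -0.21 with M1N and M2N as the only SD mice and 0.27 with TN1 and TN2. The other arm of that hairpin, miR-29a-5p, averaged 10.2 ± 4.27 CPM (SD, n = 4) on the standard diet and 15.5 ± 1.36 CPM (SD, n = 4) on the Western-like diet, with an edgeR log2 fold change of 0.58, a standard error of 0.27 and an adjusted p of 0.344.

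The sensory and neural list (miR-204-5p, miR-211-5p, miR-124-3p, miR-9-5p and miR-9-3p) had 4 of 5 members tested and 0 with an adjusted p under 0.05, 1 with an unadjusted p of 0.05 or less and higher in WD mice (16.5% over all miRNA entries), and a median log2 fold change of 0.15. That member, miR-124-3p, the leading miRNA of neurons, stood at 24.0 CPM in M1N, 23.0 in M2N, 80.6 in TN1, 80.6 in TN2, 101 in M1W, 82.9 in M2W, 76.0 in M3W and 147 in M5W. M1N and M2N were low and TN1 and TN2 lay within the WD range, unlike the cluster, for which the TN mice stood above all WD mice in 2 of 3 members. The edgeR log2 fold change was 0.98, with a standard error of 0.36 and an adjusted p of 0.318, and it was 2.12 with M1N and M2N as the only SD mice and 0.34 with TN1 and TN2. miR-204-5p, abundant in retinal pigment epithelium, was highest in M1N, at 636 CPM, and by edgeR it gave a log2 fold change of -0.48, with a standard error of 0.27 and an adjusted p of 0.393. That sign held through M1N and M2N, since the value was -0.87 with those as the only SD mice and 0.058 with TN1 and TN2.

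On the epithelial list (miR-200a-3p, miR-200b-3p, miR-200c-3p, miR-141-3p, miR-429-3p and miR-205-5p), 4 of 6 members were tested. Of these 0 had an adjusted p under 0.05, 1 had an unadjusted p of 0.05 or less and was higher in WD mice (16.5% over all miRNA entries), and the median log2 fold change was 0.60. miR-200a-3p, a keeper of the epithelial state, stood at 12.3 CPM in M1N, 21.7 in M2N, 27.1 in TN1 and 31.5 in TN2, and at 33.5 CPM in M1W, 48.2 in M2W, 32.3 in M3W and 34.5 in M5W. All WD mice were above all SD mice, the reverse of miR-183-5p and miR-182-5p, though TN2 and M3W nearly met. By edgeR the log2 fold change came to 0.69, with a standard error of 0.25 and an adjusted p of 0.318. With M1N and M2N as the only SD mice it was 1.11, and with TN1 and TN2 it was 0.34.

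Further marker lists showed no member with an adjusted p under 0.05 in edgeR's fit, and their counts at the unadjusted level are again to be set beside 16.5% of all miRNA entries. The testis and germ cell list had 1 of 5 with an unadjusted p of 0.05 or less, miR-449a-5p, lower in WD mice, at 2299 CPM in M1N and 1640 CPM in M2N but 1082 CPM in TN1 and 940 CPM in TN2, beside 835 to 1125 CPM in WD mice. White blood cell markers had 1 of 3, miR-142-3p, higher in WD mice, but their most abundant member, miR-223-3p, averaged 177 ± 93.5 CPM (SD, n = 4) on the standard diet and 126 ± 68.4 CPM (SD, n = 4) on the Western-like diet, and the list summed highest in M1N, at 380 CPM. The direction of miR-223-3p turned with the control mice, with a log2 fold change of -1.0 against M1N and M2N and 0.28 against TN1 and TN2. Muscle had 0 of 2 tested, red blood cells 0 of 2, endothelium 0 of 2, smooth muscle 0 of 2 and neurons 1 of 2, which was miR-124-3p again. Endothelial markers, both listed and led by miR-126-3p, summed to 2099 CPM in M1N, 2058 in M2N, 1412 in TN1, 1323 in TN2, 1248 in M1W, 2438 in M2W, 1775 in M3W and 1298 in M5W. Their order did not follow that of the cluster, which was highest in TN1 and TN2.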

How the data were processed

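Testis small RNA was read on a SOLiD instrument. Reads were trimmed by the authors, matched to mm9 using Bowtie at up to 2 mismatches, and named after miRBase, Rfam and another collection of non-coding RNA. The deposited values are raw counts, not pooled and not scaled. Which Bowtie release and which counter were used, and what became of reads that match in several places, is not given in the sources used here; DESeq appears in the submitters' notes.

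The deposited counts of all small RNAs were fitted with edgeR 4.0.16 in R 4.3.3: column totals as library sizes, filterByExpr (minimum count 10, minimum total 15), TMM factors, and the two-sided quasi-likelihood test with diet as the only term, adjusted over the 16955 small RNAs tested. Standard errors were derived from the F statistic. The fit was tested on simulated data. The precision rested on totals of 2064562 to 3253798 counts and on the spread between mice. DESeq2 1.42.0, limma 3.58.1, other scalings and filters, each pair of SD mice, a block on the mouse number and each mouse left out served as alternatives. Figures were drawn with matplotlib 3.10.9. Groups come from the sample titles. Sequences were matched to NCBIM37 on both strands. The members and the lists were chosen with earlier results of these data known. Named miRNAs are the 3 members, the members of the lists, and the 5 mature miRNAs with the highest Pearson correlation with the summed cluster.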

Additional observations from a re-analysis of the deposited data

Results flagged for a closer look

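Among SD mice, M2N had a log2 ratio of miR-183-5p to miR-182-5p of -1.52, far from the other 3, which lay between -0.68 and -0.55. The total count of TN2, 2064562, was far below the 3101032 to 3253798 of the other SD mice. Among WD mice, miR-293-3p stood at 30.4 CPM in M3W and at 8.09 to 10.5 CPM in the others. With 13 measures in 2 diets, 26 groups of 4 mice were examined for a mouse far from the rest, and chance alone would give about 1.3, or 1 in 20.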

How the results depend on the processing

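The log2 fold change of miR-182-5p moved by less than the spread between mice under all 19 alternatives, from -1.03 to -0.60. For miR-183-5p 16 of 19 did so, and it was -0.70 with M1N and M2N as the only SD mice. In the M1 and M2 mice, it was -0.52 both with the mouse number as a replicate block and without the block. miR-96-5p kept its sign in 18 of 19 and was 0.094 with M1N and M2N as the only SD mice and near 0 in the M1 and M2 mice, -0.079 with the block and -0.080 without (standard errors 0.40 and 0.37); leaving out single mice gave -0.65 (without M3W) to -0.17 (without M5W). The log2 ratio of mean summed CPM, -0.76, was -0.40 with M1N and M2N as the only SD mice. The difference in the log2 ratio of miR-183-5p to miR-182-5p, -0.35, ran from -0.60 against TN1 and TN2 to -0.088 against M1N and M2N, with a spread between mice, 0.48, larger than the value; that of miR-96-5p ran from 0.28 to 0.66. Alternatives for the ratio of miR-96-5p to miR-183-5p were chosen after seeing the data; its difference, 0.81, ran from 0.42 (without M3W) to 0.99 (without M5W). With M1N and M2N as the only SD mice, 84 miRNA entries had an adjusted p under 0.05 and 162 an unadjusted p of 0.05 or less; with TN1 and TN2, 18 had an adjusted p under 0.05. In the M1 and M2 mice 25 did with the block and 22 without, and 98 and 100 reached the unadjusted level. No filter on low counts gave 110 at the unadjusted level. Of the 13 miRNAs on the neighbour, sensory and epithelial lists tested in the fit reported, 0 passed adjustment and 2 the unadjusted level. With the filter rerun for each set of mice, 4 and 5 did against M1N and M2N, and 3 and 6 in the M1 and M2 mice, with the block or without. The unadjusted count was 1 by DESeq2, 4 by limma-voom, 0 against TN1 and TN2, 5 without TN1, 4 without TN2, and 2 to 5 over all mice left out; over all miRNA entries, 69 in the fit reported, these settings gave 65, 64, 80, 82, 100 and 49 to 100. Spearman correlation kept 3 of the 5 miRNAs most like the cluster. The deviations of mice with the same number gave r = -0.06 over 16955 small RNAs, and they are different animals. Only M1 and M2 occur in the names of both diets, too few mice to judge whether the number marks a batch. Fewer mice, and for the unfiltered count more entries, enter these alternatives; otherwise the cause was not tested. At 10 to 91 counts per member and mouse, differences between single mice of less than their counting intervals cannot be seen.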
